A study of Mus musculus with 4 samples.

Results

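SOX3 peaks were examined at the replication-dependent histone genes of mouse neural progenitor (NP) cells. These genes were taken as the protein-coding genes of the GENCODE vM1 annotation (mouse genome build mm9) whose symbol begins with Hist1h, Hist2h, Hist3h or Hist4h, which gave 67 of the 22367 protein-coding genes. By cluster, 55 carried a Hist1 symbol, 9 a Hist2, 2 a Hist3 and 1 a Hist4 symbol, and by product 6 encoded histone H1, 19 H2A, 18 H2B, 11 H3 and 13 H4. The cells came from R1, a mouse embryonic stem cell line, which was turned into NP cells by 4 days of monolayer culture in N2B27, a medium without serum. The measured group was 3 biological replicates of chromatin precipitated with a goat polyclonal antibody against human SOX3 (AF2569), all from this 1 line, for which no genetic change or drug is named. The input sample served the authors as the background for calling peaks and was not analysed here, so no comparison between groups of samples was possible. SOX3 is a transcription factor of the SOXB1 group that is made in neural progenitors and binds short DNA words through an HMG domain.

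Replication-dependent histone genes supply the histones that package new DNA in S phase. They are short, mostly without introns, and packed in clusters in which H2A and H2B genes often sit head to head. Their promoters commonly hold a CCAAT box, a TATA box and, for H2B and its paired H2A genes, an octamer bound by the POU factor OCT1, and their mRNAs end in a stem-loop bound by SLBP instead of a poly(A) tail. H2afx, H2afz, H3f3a and H3f3b lie outside the clusters, and the last 3 of them encode replacement variants made throughout the cell cycle.

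The DNA of these genes is shown first because the results turn on which stretch of it lay under the peaks and on how alike the copies are. The 50-base coding sequence that occurred in the most places of the mm9 reference (either strand) is given for each histone type, in the direction of transcription. The H1 sequence occurred in 3 places, the H2A sequence in 19, the H2B sequence in 15, the H3 sequence in 12 and the H4 sequence in 11. They were held by 3 of 6 H1, 17 of 19 H2A, 15 of 18 H2B, 11 of 11 H3 and 11 of 13 H4 genes.
H1, from Hist1h1d (chr13:23647088-23647137, plus strand): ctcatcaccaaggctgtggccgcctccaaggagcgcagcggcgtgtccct
H2A, from Hist1h2ai (chr13:21808471-21808520, plus strand): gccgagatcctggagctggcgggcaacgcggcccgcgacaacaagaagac
H2B, from Hist1h2bl (chr13:21807690-21807739, minus strand): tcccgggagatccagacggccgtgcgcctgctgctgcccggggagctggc
H3, from Hist1h3h (chr13:21809681-21809730, plus strand): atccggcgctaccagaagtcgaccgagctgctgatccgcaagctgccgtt
H4, from Hist1h4j (chr13:21827133-21827182, plus strand): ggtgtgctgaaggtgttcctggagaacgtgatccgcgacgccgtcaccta

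Promoters are shown for the member of each type with the highest-ranked peaks, from 250 bases before to 49 bases after the annotated 5′ end of the gene, in the direction of transcription. Capitals mark exact matches, on either strand, to the SOX words (AACAAA or AACAAT with A first, and GACAAA or GACAAT with G first), to the octamer ATTTGCAT, to the CCAAT box, to the TATA box read as TATAAA, and to the H1 box read as AAACACA. The annotated 5′ end of Hist2h3c1 lies inside Hist2h2aa1, so the window printed for it is the promoter of an H2A gene and resembles that of the duplicated Hist2h2aa2.
Hist1h1a (chr13:23855287-23855586, plus strand): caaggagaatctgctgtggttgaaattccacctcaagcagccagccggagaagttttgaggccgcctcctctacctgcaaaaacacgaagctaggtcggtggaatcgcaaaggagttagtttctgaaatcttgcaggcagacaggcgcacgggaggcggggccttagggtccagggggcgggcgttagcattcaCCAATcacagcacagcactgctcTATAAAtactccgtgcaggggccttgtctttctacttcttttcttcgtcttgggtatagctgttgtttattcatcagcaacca
Hist2h2aa2 (chr3:96044167-96044466, minus strand): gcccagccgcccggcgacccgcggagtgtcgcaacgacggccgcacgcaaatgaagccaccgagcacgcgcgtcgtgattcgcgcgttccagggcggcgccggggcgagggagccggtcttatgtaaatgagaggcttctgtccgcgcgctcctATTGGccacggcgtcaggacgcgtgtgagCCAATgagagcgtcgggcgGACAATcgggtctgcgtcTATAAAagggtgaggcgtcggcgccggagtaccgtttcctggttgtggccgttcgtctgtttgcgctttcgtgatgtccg
Hist1h2bf (chr13:23666016-23666315, minus strand): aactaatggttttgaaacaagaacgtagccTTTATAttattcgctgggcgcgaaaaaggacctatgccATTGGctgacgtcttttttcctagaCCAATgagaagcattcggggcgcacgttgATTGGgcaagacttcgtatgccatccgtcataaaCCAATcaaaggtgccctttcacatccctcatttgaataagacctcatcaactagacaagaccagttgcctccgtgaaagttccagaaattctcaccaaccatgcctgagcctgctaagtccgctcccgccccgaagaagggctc
Hist2h3c1 (chr3:96049227-96049526, plus strand): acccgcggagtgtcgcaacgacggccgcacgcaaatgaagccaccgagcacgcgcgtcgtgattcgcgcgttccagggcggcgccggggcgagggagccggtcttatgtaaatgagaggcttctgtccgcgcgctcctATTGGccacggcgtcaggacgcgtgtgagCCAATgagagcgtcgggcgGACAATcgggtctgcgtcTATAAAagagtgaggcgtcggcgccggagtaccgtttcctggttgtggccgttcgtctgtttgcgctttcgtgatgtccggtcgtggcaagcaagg
Hist1h4j (chr13:21826653-21826952, plus strand): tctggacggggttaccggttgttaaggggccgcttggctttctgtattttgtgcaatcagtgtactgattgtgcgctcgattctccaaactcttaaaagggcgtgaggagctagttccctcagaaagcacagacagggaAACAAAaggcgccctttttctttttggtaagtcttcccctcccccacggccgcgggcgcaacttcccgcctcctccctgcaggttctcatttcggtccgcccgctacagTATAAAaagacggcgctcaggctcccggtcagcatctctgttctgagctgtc

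Next are the promoters of Hist1h1t, the member with no peak in any replicate, and of Hist4h4, whose peaks lay in DNA with a single copy, and the stretch between the head-to-head genes Hist1h2ae and Hist1h2bg, which was under a peak from end to end in every replicate.
Hist1h1t (chr13:23787430-23787729, plus strand): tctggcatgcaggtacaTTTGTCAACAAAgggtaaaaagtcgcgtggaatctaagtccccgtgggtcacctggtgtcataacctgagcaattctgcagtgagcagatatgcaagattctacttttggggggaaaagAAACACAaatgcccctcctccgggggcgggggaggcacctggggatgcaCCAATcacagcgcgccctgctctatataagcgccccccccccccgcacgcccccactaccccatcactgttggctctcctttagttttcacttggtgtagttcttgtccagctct
Hist4h4 (chr6:136752851-136753150, minus strand): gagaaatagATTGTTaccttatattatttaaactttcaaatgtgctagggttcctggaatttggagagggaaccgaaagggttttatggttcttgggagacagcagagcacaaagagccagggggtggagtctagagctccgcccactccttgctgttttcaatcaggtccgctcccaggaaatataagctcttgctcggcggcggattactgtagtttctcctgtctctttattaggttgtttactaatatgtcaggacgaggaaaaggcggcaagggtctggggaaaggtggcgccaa
Hist1h2ae to Hist1h2bg (chr13:23663090-23663264, plus strand): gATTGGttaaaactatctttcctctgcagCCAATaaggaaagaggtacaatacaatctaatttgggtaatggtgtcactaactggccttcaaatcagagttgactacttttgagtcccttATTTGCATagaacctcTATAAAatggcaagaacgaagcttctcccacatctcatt

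The deposited lists held 18816 peaks in replicate 1, 8096 in replicate 2 and 40543 in replicate 3. Each peak carries a score of 10 times the negative log10 of its MACS p-value against the input, with 50 as the lowest score. The score grows with sequencing depth, which is unknown here, so it is given below with its percentile, the share of the same list that scored at or below it. The replicates were not equally alike. Where a replicate 2 peak near a histone gene start overlapped a replicate 3 peak, 19 of 79 pairs had an identical first base and 7 an identical last base as well. The matching counts of identical first bases were 1 of 81 for replicates 1 and 2 and 0 of 88 for replicates 1 and 3, and over whole lists they came to 34.5% for replicates 2 and 3, 0.922% for 1 and 2, and 1.63% for 1 and 3. Whether replicates 2 and 3 share material cannot be told from the lists, so the 3 replicates may not be equally independent where a peak in every replicate is counted below.

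A histone gene was counted as having a peak when the middle of a peak lay within 2000 bp of one of its annotated starts. In replicate 1, 64 of 67 histone genes had a peak (95.5%, 95% Wilson interval 87.6 to 98.5%), where 20.4% of all protein-coding genes had one. In replicate 2, the shortest list, 63 of 67 had a peak (94.0%, 85.6 to 97.7%), where the share of all genes was 6.23%. In replicate 3, 66 of 67 had a peak (98.5%, 92.0 to 99.7%), where the share of all genes was 19.1%. A peak in every replicate was found at 63 of 67 histone genes (94.0%, 85.6 to 97.7%) and at 5.05% of all genes, and leaving out 1 replicate at a time gave 63 or 64 genes. Without peaks that lie mostly in DNA with several copies, described further on, 48, 33 and 47 of 67 histone genes had a peak in replicates 1, 2 and 3, where 19, 5.35 and 16.5% of all genes had one. The count in every replicate was then 31 of 67, where 4.37% of all genes had a peak in every replicate. Intervals cover counting error only, and neighbouring histone genes shared peaks and are not independent, so no test was run on these counts.

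**Figure D1:**
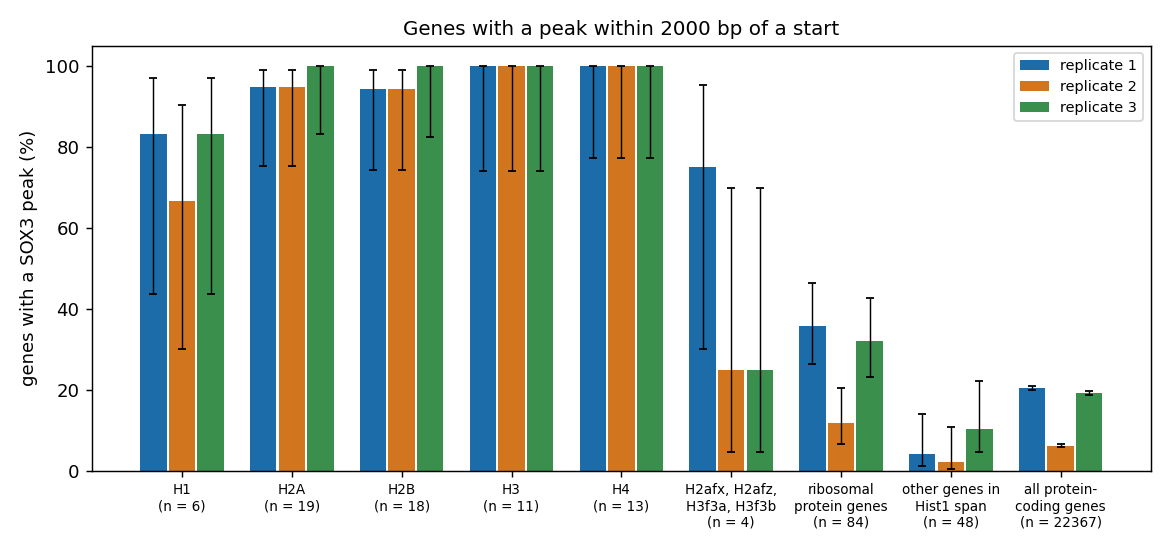
Share of genes with a SOX3 peak within 2000 bp of a start (y axis, percent) by histone type, beside 4 comparison groups (x axis); bars are replicates 1 to 3 and error bars are 95% Wilson intervals. All H3 and H4 genes had a peak in each replicate, and H1 genes between 66.7 and 83.3%, against 20.4, 6.23 and 19.1% of all protein-coding genes.

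Distances of 2000 bp reach into the next gene in these clusters, since 49 of the 67 histone genes had another protein-coding start within that distance. A narrower count, for peaks that overlapped the stretch from 300 bp before to 500 bp after a start, gave 58 of 67 histone genes in every replicate, where 3.56% of all genes passed. The 9 genes lost or absent under the narrower count were Hist1h1a, Hist1h1b, Hist1h1t, Hist1h2aa, Hist1h2be, Hist2h2ab, Hist2h4, Hist3h2a and Hist3h2ba. Of the 18 histone genes with no other start within 2000 bp, 15 had a peak in every replicate (83.3%, 60.8 to 94.2%). Among other protein-coding genes with a neighbouring start within 2000 bp, 246 of 3518 had one (6.99%, 6.20 to 7.88%).

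By cluster, 53 of 55 Hist1 genes and 9 of 9 Hist2 genes had a peak in every replicate, where 5.05% of all protein-coding genes had one. Hist1 lies on chromosome 13, with 54 of its genes between positions 21807632 and 24026720 and Hist1h2al apart from them at chr13:51298057-51298434. Within that span of 2219089 bp, the stretches within 2000 bp of a histone start made up 5.96% of the bases and held 83 of 137 peaks in replicate 1 (60.6%), 68 of 92 in replicate 2 (73.9%) and 74 of 149 in replicate 3 (49.7%). The span also holds 48 other protein-coding genes, and 1 of them had a peak in every replicate, Gm17658, whose peak is the one at Hist1h4d. Hist2, on chromosome 3 (chr3:96023839-96082924), held 12, 11 and 13 peaks in replicates 1, 2 and 3, of which 12, 10 and 12 lay within 2000 bp of a histone start, and the stretches that near to a start made up 36.4% of the bases there.

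Hist3 and Hist4 are the small loci. Hist3h2a, an H2A gene on chromosome 11, had no peak in replicates 1 and 2 and a score of 86.75 in replicate 3, at the 74.98 percentile. Hist3h2ba, its H2B neighbour, likewise had no peak in replicates 1 and 2 and a score of 51.73 in replicate 3, at the 10.97 percentile. Neither Hist3 gene therefore had a peak in more than 1 replicate, and the replicate 3 score of Hist3h2ba was close to the lowest allowed. Hist4h4, the H4 gene of chromosome 6 (chr6:136752589-136752900), scored 239.57, 100.54 and 158.30 in replicates 1, 2 and 3, at the 88.4, 61.6 and 90.9 percentiles, within the range of the Hist1 and Hist2 genes. None of the 50-base sequences under its peaks occurred elsewhere in the reference.

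By histone type, a peak in every replicate was found at 11 of 11 H3 genes, 13 of 13 H4 genes, 18 of 19 H2A genes, 17 of 18 H2B genes and 4 of 6 H1 genes. Without mostly multi-copy peaks the counts fell to 5 H3, 8 H4, 7 H2A, 9 H2B and 2 H1 genes. The types were also compared by whether a gene had a peak of its own, meaning one closer to its start than to any other protein-coding start. All H3 and H4 genes had a peak of their own in every replicate, against 15 of 19 H2A, 15 of 18 H2B and 3 of 6 H1 genes, where 4.5% of all protein-coding genes had one. The median percentile of the best peak of their own was 96.3, 95.8 and 99.03 for H3 in replicates 1, 2 and 3, and 97.5, 92.9 and 98.6 for H4. For H2A the medians were 94.0, 85.7 and 97.2, and for H2B 86.5, 81.8 and 96.9. H1 genes had the lowest median in replicates 2 and 3, at 65.3 and 92.1, and 87.4 in replicate 1. With 6 H1 genes, their share in every replicate has a Wilson interval that reaches up to 90.3% and overlaps the intervals of the other types.

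H1 is the linker histone, and 2 of its 6 genes lacked a peak in at least 1 replicate. Hist1h1t, which encodes the linker histone of testis, had no peak in any replicate. Hist1h1b scored 100.09 in replicate 1 and 60.45 in replicate 3 and had no peak in replicate 2. Hist1h1d had scores of 269.59, 316.30 and 893.55 in replicates 1, 2 and 3, and was the H1 gene with the highest peak of its own in replicate 3. Hist1h1c scored 527.18, 108.45 and 217.29, with replicate 1 the highest, and its replicate 2 value lay at the 65.3 percentile. Hist1h1a ranked first among H1 genes at 370.70, 427.15 and 763.57, but the middles of these peaks lay at -1502, -1534.5 and -1567 bp from its start (minus means upstream), over the H3 gene Hist1h3a. The rank of Hist1h1a is thus that of a neighbour, and the 300 bp before its coding sequence held no base under a peak in any replicate.

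Among H2A genes, the highest ranks were at the duplicated Hist2h2aa1 and Hist2h2aa2. Hist2h2aa2 scored 876.70, 750.49 and 1303.73 in replicates 1, 2 and 3, each at or above the 98.8 percentile of its list. Hist2h2aa1 scored 1441.64, 718.40 and 1152.61, and its replicate 1 peak ranked 70 in the whole list, the highest rank of any histone gene there. About 93% of the 50-base sequences under the Hist2h2aa2 peaks occurred in more than 1 place (93.4, 92.2 and 93.2%). The third H2A gene by rank, Hist1h2ab, scored 609.76, 558.56 and 892.95 through peaks 1454.5 to 1488.5 bp downstream of its start, over the H3 gene Hist1h3b.

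The testis-specific genes Hist1h2aa (H2A) and Hist1h2ba (H2B) form a head-to-head pair at the end of Hist1 and shared 1 peak per replicate. Its scores of 51.94, 88.48 and 185.46 lay at the 5.18, 54.7 and 92.7 percentiles, so that in replicate 1 it was just above the lowest score allowed. All other H2A and H2B genes of Hist1 had a best peak at or above the 57.9 percentile in each replicate.

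The 3 H2B genes with the highest ranks drew them from H3 neighbours. Hist1h2bf and the H3 gene Hist1h3d shared a peak with scores of 604.26, 570.64 and 960.31, whose middle lay 183.5 to 220.5 bp downstream of the Hist1h3d start and at -1750.5 to -1787.5 bp from the Hist1h2bf start. Hist1h2bl scored 586.22, 547.83 and 837.78 with the peak over Hist1h3h. Hist1h2bh scored 609.00, 456.57 and 731.45 with the peak over Hist1h3f. With peaks of their own, H2B genes reached at most the 96.9 percentile in replicate 1, at Hist1h2bm. That peak lay nearer to the start of Hist1h2aj, which is annotated as a pseudogene and so is not a protein-coding start.

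For H3, a core histone, the lowest best percentile within 2000 bp was 91.2, 90.0 and 98.2 in replicates 1, 2 and 3 and the highest was 99.6, 98.8 and 99.6. Some of these peaks were nearer to another gene, and with peaks of their own the lowest values were 91.2, 83.1 and 96.6. Hist2h3c1 ranked first with the peaks also given for Hist2h2aa1, and Hist1h3b and Hist1h3d followed with the values above. For H4, Hist1h4j scored 971.70, 767.84 and 1594.95, which were rank 171, 85 and 73 in the 3 lists, and it held the highest histone score in replicates 2 and 3. Between 25.9 and 27.3% of the 50-base sequences under its peaks were multi-copy. Hist1h4k scored 964.56, 450.48 and 742.06. Hist1h4m scored 613.14, 428.88 and 723.47, and its best peaks in replicates 2 and 3 lay over the head-to-head pair Hist1h2bq and Hist1h2ao. At the other end, Hist2h4 scored 60.71, 52.84 and 168.34, at the 30.9, 8.89 and 91.7 percentiles. Its single-copy peaks had their middles 781.5 to 1018 bp after the start, past the coding sequence and the stem-loop. No base of its coding sequence was under a peak in any replicate.

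**Figure D2:**
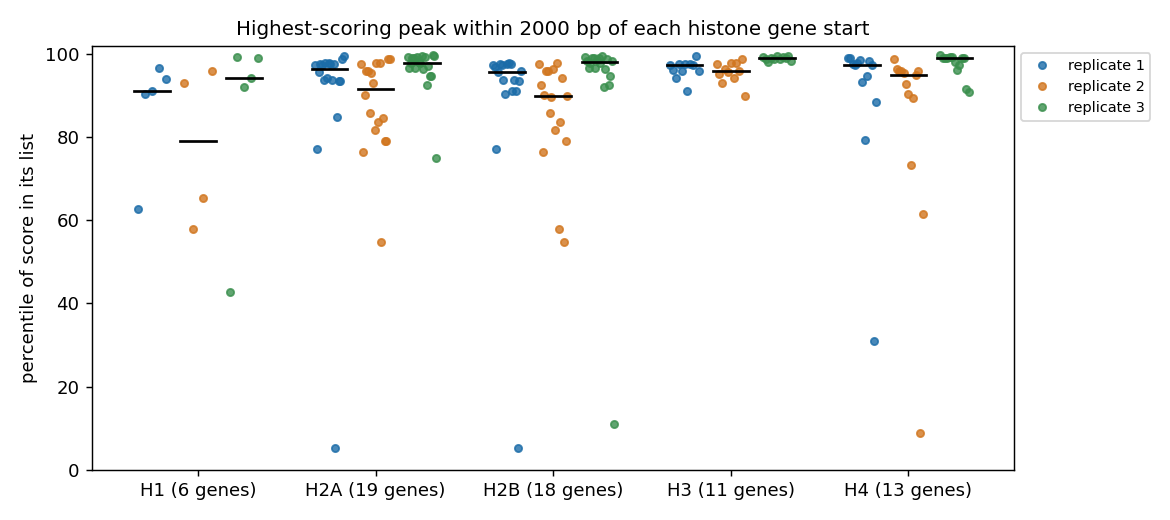
Percentile within its list of the highest-scoring peak within 2000 bp of each histone gene start (y axis), by type (x axis) and replicate (colour); each point is a gene with a peak and black bars are medians. Over the genes with a peak the median is 96.1, 93.05 and 98.7 in replicates 1, 2 and 3, the lowest H3 values are 91.2, 90.0 and 98.2, and without mostly multi-copy peaks, which are included here, the medians were 91.2, 61.6 and 96.7.

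Near histone starts lay 98, 80 and 91 peaks in the order of the replicates, or 0.521, 0.988 and 0.224% of each list. Their median scores were 209.1, 193.2 and 331.3, where the lists had 77.4, 82.3 and 63.6 and peaks at other promoters 75.2, 79.1 and 69.2. They were also wider, with medians of 310, 324 and 403 bp against 220, 250 and 210 bp at other promoters. The top 1% of each list held 3 of 188 peaks near histone starts in replicate 1, 0 of 81 in replicate 2 and 18 of 405 in replicate 3, which was 3.06, 0 and 19.8% of the peaks near histone starts. The top 10% held 44, 28 and 65 histone peaks, or 44.9, 35.0 and 71.4% of them. Without mostly multi-copy peaks, the median percentile of the best peak of a histone gene was 91.2, 61.6 and 96.7 in replicates 1, 2 and 3. The order of genes by best score was similar in all lists, with Spearman's rho of 0.76 between replicates 1 and 2 (63 genes), 0.76 between 1 and 3 (64 genes) and 0.93 between 2 and 3 (63 genes). These are descriptions across genes that share peaks, and the closer likeness of replicates 2 and 3 stands beside the shared peak ends given above.

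Peaks at histone genes lay downstream of the start. The middle of the highest-scoring peak of each gene's own was a median of 200.5 bp downstream in replicate 1 (61 genes), 224.5 bp in replicate 2 (59 genes) and 212 bp in replicate 3 (62 genes). At other protein-coding genes the median was at -43.5, -60 and -46 bp. The middle was downstream of the start at 86.9, 86.4 and 82.3% of histone genes and at 35.3, 33.7 and 40.9% of other genes. By type, the place of highest cover is given below, with no test of a difference between types. Except for H1, a position is the mean of all bases tied for the highest cover. At H3 genes the cover was highest 378 to 395 bp after the start, where all 11 genes were under a peak in every replicate. For Hist2h3c1 this stretch lies within the H2A gene Hist2h2aa1, because its annotated 5′ end does. At H4 genes it was highest 57 to 240 bp after the start, at 92.3, 84.6 and 92.3% of the 13 genes. At H2A genes it was highest 119 to 133 bp after the start, at 89.5, 84.2 and 89.5%. H2B genes had maxima before and after the start, and the highest lay at -290 bp in replicate 1 and at 303 and 314 bp after the start in replicates 2 and 3. At the 6 H1 genes the highest cover was 66.7, 50 and 66.7% in replicates 1, 2 and 3. Read every 25 bp, it was reached at 75 to 200 and again at 650 to 850 bp after the start in replicate 1. In replicate 2 it was reached at 125 to 300 bp, and in replicate 3 at 225 to 350 bp. The H4 positions thus take in those of H2A, and in replicate 1 the H1 positions lie on both sides of those of H3.

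**Figure D3:**
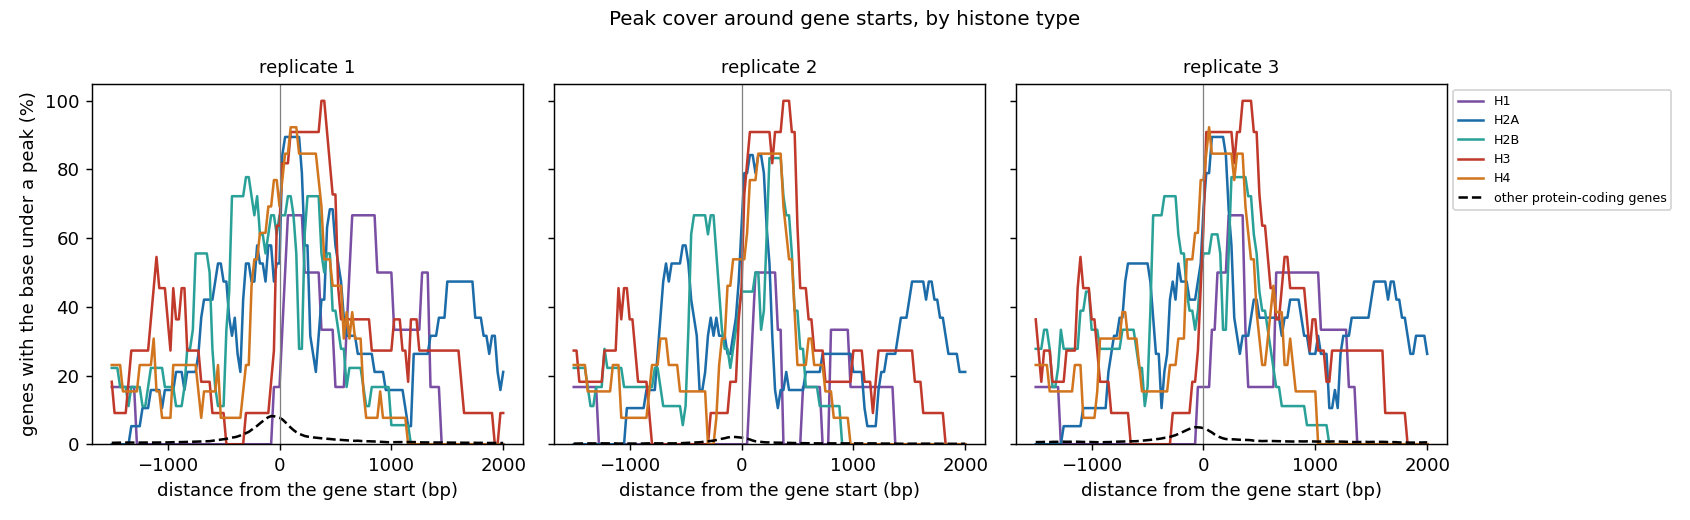
Share of genes whose base at a given distance from the start lies under a peak (y axis, percent), against distance along the direction of transcription (x axis, bp), for each histone type and for other protein-coding genes (dashed), 1 panel per replicate. The H3 line reaches 100% at 378 to 395 bp after the start in each panel, whereas the dashed line is highest at -66, -70 and -76 bp, with 8.23, 2.14 and 4.96%. The H3 line includes Hist2h3c1, placed by a 5′ end inside the H2A gene Hist2h2aa1.

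The annotated genes are short, with a median length of 530 bp and a median coding sequence of 390 bp, unbroken in 63 of 67, and 9 have a start annotated at the first coding base, so cover was also measured over the coding sequence and the 300 bp before it. In the median histone gene, 81.5, 63.8 and 82.3% of coding bases were under a peak in replicates 1, 2 and 3, and 48.3, 23.0 and 40.7% of the bases before them. Coding cover exceeded upstream cover in 42, 48 and 44 of the 67 genes, and upstream cover exceeded coding cover in 15, 11 and 16. In H3 genes the contrast was present in all 11 genes and all replicates, with mean coding cover of 99.2, 99.3 and 99.6% and mean upstream cover of 27.4, 22.6 and 29.8%. H4 genes had mean coding cover of 86.6, 80.9 and 85.6% and upstream cover of 65.0, 37.1 and 51.9%. H2A and H2B genes were closer to even, with coding means of 49.1 to 64.5% and upstream means of 39.2 to 59.7%. In 12 head-to-head pairs of these types the annotated 5′ ends are 167 to 305 bp apart. The 300 bp before a coding sequence can thus run into the partner gene. H1 genes had the least of both, with coding means of 45.6, 24.5 and 37.6% and upstream means of 9.67, 0 and 5.33%.

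**Figure D4:**
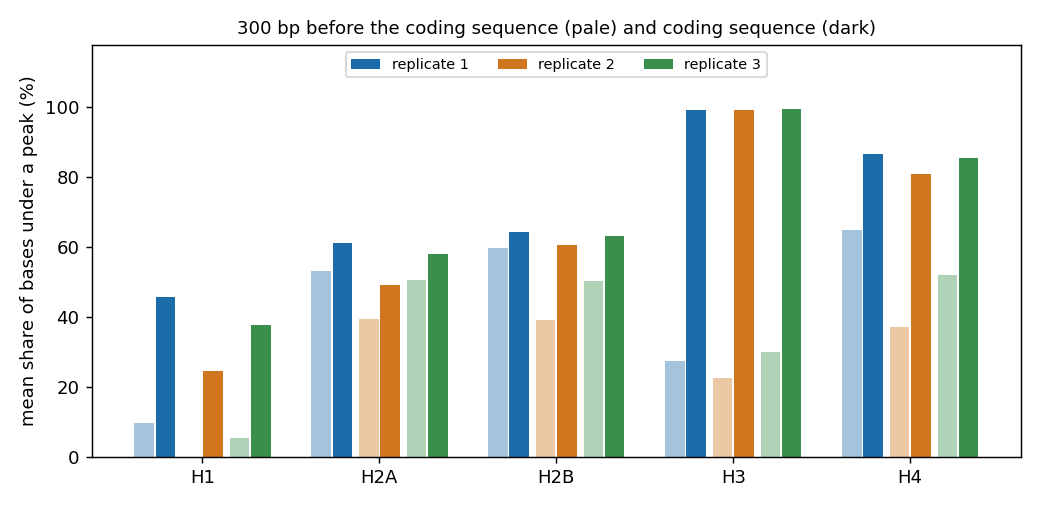
Mean share of bases under a peak (y axis, percent) in the coding sequence (dark bars) and in the 300 bp before it (pale bars), by histone type (x axis) and replicate (colour). The H3 genes have coding cover of 99.2 to 99.6% beside upstream cover of 22.6 to 29.8%, and H1 genes are lowest for both.

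Coding sequences of histone genes are repeated in the genome and the DNA before them mostly is not. A median of 65.6% of coding bases lay at the centre of a 50-base sequence, the length of the reads, that occurred in more than 1 place, with medians of 73.0% for H3, 72.6% for H2A, 69.2% for H2B, 62.5% for H4 and 10.1% for H1. In the 300 bp before the coding sequence the median was 0%, and 12 of 67 genes had any such base. Of the peaks near histone starts, 44.9, 65.0 and 45.1% were mostly multi-copy, meaning that over 50% of their 50-base sequences occurred in more than 1 place, against 23.1, 27.5 and 29.2% of the lists. How the aligner treated reads that match several places is not given in the sources used here, and its part in the placement of the peaks was not tested. The 31 histone genes with a peak in every replicate once mostly multi-copy peaks were left out were 9 of 18 H2B, 8 of 13 H4, 7 of 19 H2A, 5 of 11 H3 and 2 of 6 H1 genes.

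The cover was then split by copy number base by base. Over all histone genes, 76.6% of multi-copy coding bases and 42.0% of single-copy coding bases were under a peak in replicate 2, and the single-copy bases in the 300 bp before the coding sequence reached 25.5%. In replicate 1 single-copy bases were under a peak in 54.6% of the coding and 43.9% of the upstream sequence, and in replicate 3 in 51.7 and 36.4%. The types were unequal in this. In replicate 1, single-copy bases of H2B genes were under a peak in 50.3% of the coding and 54.7% of the upstream sequence, those of H4 genes in 71.6 and 68.9%, those of H2A genes in 49.3 and 42.9%, and those of H1 genes in 39.0 and 9.67%. In replicates 2 and 3 the coding value was the higher in each type, with 44.8 against 31.6% and 50.1 against 44.0% for H2B. Multi-copy bases did not show this order over all genes. In the upstream sequence 85, 82.2 and 91.5% of 2520 multi-copy bases, from 12 genes, were under a peak in replicates 1, 2 and 3, and in the coding sequence 81.7, 76.6 and 79.4% of 15470. The H3 genes kept their contrast in single-copy DNA, with 96.8, 98.4 and 98.2% of 1106 single-copy coding bases under a peak against 22.2, 18.1 and 24.3% of 3050 single-copy upstream bases. Of their multi-copy bases, 100, 99.5 and 100% of those in coding sequence were under a peak, and 91.2, 77.6 and 98% of the 250 upstream, which come from 1 gene. A single-copy base of an H3 gene lies within a peak that also spans multi-copy bases, so the values are not independent of them. In H1 genes, 100, 84.1 and 98.9% of 447 multi-copy coding bases were under a peak, and 39.0, 16.9 and 29.9% of 3444 single-copy ones. Genes were also grouped by the multi-copy share of the whole annotated gene, noncoding parts included. A peak in every replicate was found at 9 of 12 genes with up to 10%, at 24 of 25 with 10 to 50% and at 30 of 30 with more than 50%, where 5.05% of all genes had one. The lowest group includes Hist1h2bc and Hist1h2be, whose coding sequences are 85.7 and 73.8% multi-copy. It also includes Hist1h2aa, whose only peak in each replicate lay over Hist1h2ba, and Hist1h1a, whose only replicate 2 peak lay over Hist1h3a. Without mostly multi-copy peaks the counts were 5 of 12, 14 of 25 and 12 of 30, where all genes had 4.37%. This filter takes out peaks by multi-copy share, which also sorts the genes, so these counts cannot show how peaks depend on that share.

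Some peaks of 1 list had the same score and width in different places. Within Hist1, Hist1h2bq, Hist1h2ao and Hist1h4m stand opposite their copies Hist1h2br, Hist1h2ap and Hist1h4n. In replicate 1, a peak of 594 bp with a score of 591.83 was listed in each copy (chr13:21901910-21902503 and chr13:21925177-21925770). In replicate 2, 2 peaks per copy matched, 617 bp wide with a score of 428.88 and 672 bp wide with a score of 350.94, and in replicate 3 a peak of 617 bp with a score of 723.47 matched. All 50-base sequences of these peaks occurred in more than 1 place. Away from these copies, replicate 3 listed a peak of 244 bp with a score of 126.63 both at Hist1h2bm (chr13:21814146-21814389) and at Hist1h2ak and Hist1h2bn (chr13:21845520-21845763), where 50.3 and 41.0% of the 50-base sequences were multi-copy. Other peaks of the copies differed. In replicate 1, Hist1h4m also had a peak with a score of 613.14, with 92.4% of its 50-base sequences multi-copy, and the best peak of Hist1h4n was the one with 591.83. In replicate 3, the best peak was 893 bp wide with a score of 789.55 at Hist1h2bq and 712 bp wide with a score of 757.61 at Hist1h2br.

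Head-to-head pairs of H2A and H2B genes put 2 promoters into 1 short stretch. In 12 such pairs the stretch between the annotated 5′ ends was 167 to 305 bp long, and it touched a peak in 11, 9 and 10 pairs in replicates 1, 2 and 3 and in 9 pairs in every replicate. The stretch between Hist1h2ae and Hist1h2bg (175 bp, printed above) and those of the duplicated pairs Hist1h2bq with Hist1h2ao and Hist1h2ap with Hist1h2br (167 bp each) were under a peak over their full length in every replicate. The stretch between the testis-specific Hist1h2ba and Hist1h2aa had no base under a peak in any replicate. Between these lay pairs such as Hist1h2ac with Hist1h2bc, with 100, 19.2 and 46.8% of 250 bp under a peak, and Hist2h2ac with Hist2h2be, with 87.5, 12.9 and 30% of 240 bp. CCAAT was present in all 12 stretches, the octamer and TATAAA in 5 each, AACAAA or AACAAT in 3 and GACAAA or GACAAT in 0.

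Words were counted exactly and on both strands in windows of 300 bases around the 5′ end, as printed above. CCAAT was present in 57 of 67 histone promoters (85.1%) against 37.8% of 22295 other promoters. All H1, H2A and H2B promoters and 10 of 11 H3 promoters held it, and 4 of 13 H4 promoters did (30.8%, 12.7 to 57.6%). The H3 promoters include the window of Hist2h3c1, which is that of an H2A gene. TATAAA was present in 38 (56.7%) against 13.3%. The octamer ATTTGCAT, the site of POU factors, was present in 7 of 19 H2A and 8 of 18 H2B promoters and in no H1, H3 or H4 promoter, against 1.66% of other promoters. The H1 box AAACACA was present in 5 of 6 H1 promoters against 6.39% of others. AACAAA or AACAAT, a form of the SOX core, was present in 27 histone promoters (40.3%, 29.4 to 52.3%) against 26.4%, and GACAAA or GACAAT in 11 (16.4%, 9.42 to 27.1%) against 19.4%. The promoter of Hist1h1t, the gene without a peak, holds both SOX forms side by side, and that of Hist2h2aa2 holds 1 GACAAT at -48. A word match is a description of the letters and does not show binding.

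AACAAA or AACAAT was less frequent under the peaks at histone genes than beside them. Of the 80 stretches near histone starts that were covered by a peak of each replicate, 16 held AACAAA or AACAAT (20.0%, 12.7 to 30.05%), whereas 42.5% of windows of the same width 2000 bp to either side did (35.1 to 50.2%). In the 1011 such stretches at other promoters the share was 39.2% (36.2 to 42.2%) and their flanking windows had 33.4%, and in all 5456 stretches away from histone starts it was 53.5% with 38.7% in the flanks. GACAAA or GACAAT was present in 21.2% of the stretches at histone genes (13.7 to 31.4%) and in 30.6% of their flanks (24.01 to 38.2%), and these intervals overlap. In windows of 200 bp, AACAAA or AACAAT was present in 12.5% of the stretches at histone genes and 35.6% of their flanks, and GACAAA or GACAAT in 11.2 and 17.5%. The octamer was present in 4 of 80 (5%, 1.96 to 12.2%) against 2.50% of the flanks, also within the intervals. The genes themselves divided the same way, since AACAAA or AACAAT was present in the 300 bp before the coding sequence of 27 genes and in the coding sequence of 2, while GACAAA or GACAAT was present in 9 and 5. In H3 and H4 genes neither form occurred in any of the 24 coding sequences.

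**Figure D5:**
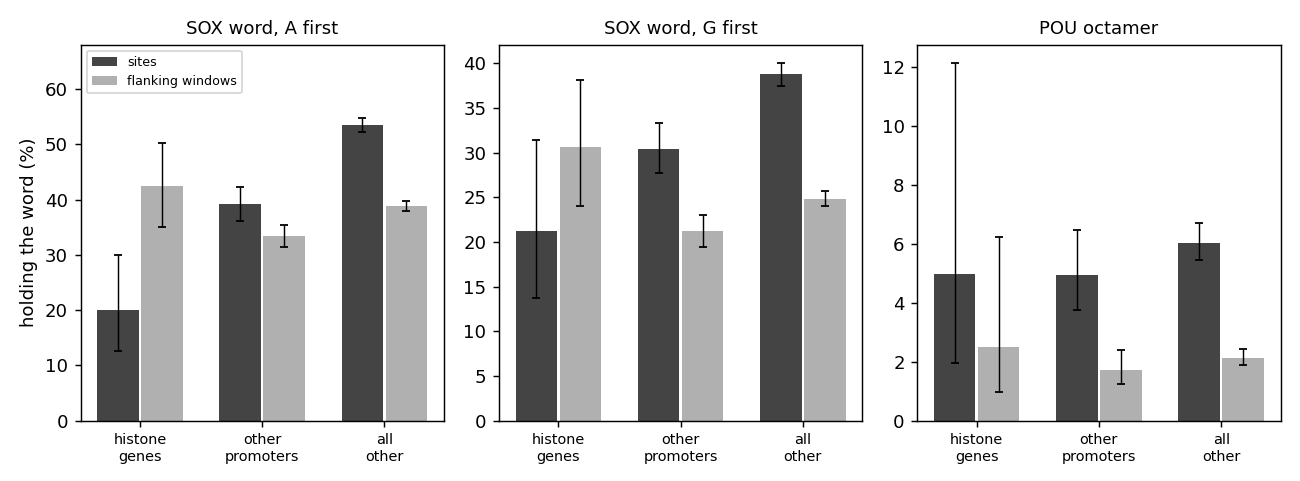
Share of stretches covered by a peak of each replicate (dark) and of their flanking windows (pale) that hold a word (y axis, percent; the scale differs between panels), near histone gene starts, at other promoters and at all places away from histone starts; error bars are 95% Wilson intervals. For the SOX word with A first the dark bar is below the pale bar at histone genes (20.0 against 42.5%) and above it in the other groups.

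The stem-loop of histone mRNA lies just past the coding sequence and marks the far end of these genes. It was read as arms GGCTCT and AGAGCC (or GGCCCT and AGGGCC, or GGTCCT and AGGACC) with 4 bases between them on the transcribed strand, and was found 24 to 61 bp after the coding sequence of 60 of 67 genes. It lay under a peak at 39, 32 and 40 of these 60 genes in replicates 1, 2 and 3. At H3 genes it did so at 7, 10 and 10 of 11, at H4 genes at 10, 11 and 11 of 13, at H2A genes at 12, 3 and 6 of 17, at H2B genes at 6, 8 and 10 of 13, and at H1 genes at 4, 0 and 3 of 6.

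Of the 4 named histone genes outside the clusters, 3, 1 and 1 had a peak in replicates 1, 2 and 3 and 1 in every replicate, which is 75, 25, 25 and 25% where all genes had 20.4, 6.23, 19.1 and 5.05%. With 4 genes the Wilson interval for every replicate runs from 4.56 to 69.9%. H2afz, the gene of H2A.Z, had no peak in any replicate. H2afx had a peak in replicate 1 alone, with a best score of 82.94 at 1696 bp after the start. H3f3b, 1 of the genes of H3.3, had a score of 349.81 in replicate 1 and no peak in replicates 2 and 3. H3f3a, the other, had a peak in every replicate with scores of 56.69, 50.78 and 68.39, at the 21.7, 3.01 and 58.1 percentiles. Of 9 further non-cluster histone genes, H2afy2, which encodes a macroH2A, had a peak in every replicate at 273.77, 106.67 and 195.65, at 1051.5, 1043 and 1010.5 bp after a start, and the other 8 did not. Of the 48 genes that sit within the Hist1 span but encode no histone, 2, 1 and 5 had a peak in replicates 1, 2 and 3, with Gm17658 among them each time.

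Of 20 genes that act on replication-dependent histone genes, 6, 2 and 7 had a peak in replicates 1, 2 and 3 (30, 10 and 35%, where all genes had 20.4, 6.23 and 19.1%), and 1 had a peak in every replicate (5%, where all genes had 5.05%). This was Pou2f1, the gene of OCT1, with scores of 525.42, 286.93 and 578.01, at -435.5, -599 and -475 bp from a start. Npat, which encodes the coactivator of histone transcription, had no peak, and Slbp scored 60.62 in replicate 1 and 51.89 in replicate 3. Of 10 histone chaperone genes, 5, 2 and 3 had a peak in replicates 1, 2 and 3 (50, 20 and 30%), and 2 in every replicate (20%, 5.67 to 51.0%). Chaf1b, a subunit of the CAF-1 chaperone, scored 163.96, 65.18 and 69.62, and Ssrp1, a subunit of the FACT complex, scored 160.91, 92.15 and 135.27. As another group of strongly transcribed genes, 30, 10 and 27 of 84 ribosomal protein genes had a peak (35.7, 11.9 and 32.1%, each above the share of all genes), and 6 in every replicate (7.14%, 3.31 to 14.7%, an interval that holds the 5.05% of all genes). Among other short genes with a single-exon transcript of up to 1500 bp, 35 of 2270 had a peak in every replicate (1.54%, 1.11 to 2.14%).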

How the data were processed

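The authors sequenced 50 bp single-end reads, aligned them to mm9 with Bowtie 1.0.0 (version per the labels) and ran MACS on each replicate, with the input as control and a p-value limit of 1e-05. The deposited score of a peak is 10 times the negative log10 of that p-value, without normalization between replicates. Replicates were not pooled, depth is unknown, and the treatment of multi-match reads is not given in the sources used here.

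Starts came from GENCODE vM1 on NCBIM37 (the same assembly as mm9), without the mitochondrial genes. Peak starts were converted to count from 1. Copy number was counted from all 50-base sequences of the reference, on both strands. Shares have 95% Wilson intervals and no test was run, since there is 1 group and genes share peaks. The peak search was tested on simulated data with 300 planted peaks, of which 300 were found at their offset. Genes named are those without a peak in a replicate, the 3 highest by lowest percentile in each type, all of Hist3 and Hist4, testis-specific members, the named non-cluster genes, and genes of the comparison lists with a peak in every replicate, except that ribosomal protein genes are given as counts and their names are not reported here. A few others were named after their values were seen. Members and lists were chosen with earlier results of these data known. H1f0 and H2bfm of the lists were not found in the annotation. The alternatives were other distances, edges, thresholds, equal list sizes, overlaps, peak subsets, word windows and leaving out each replicate. Python 3.11.15, numpy 2.4.6, numba 0.67.0, pysam 0.24.0 and matplotlib 3.10.9 were used.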

Additional observations from a re-analysis of the deposited data

How the results depend on the processing

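No paired analysis was possible because the 3 replicates form 1 group and no second group was analysed. Of 72 alternatives, 60 stayed within 1.5 times the count or within the spread. The others were as follows. Without mostly multi-copy peaks, the histone genes with a peak numbered 33 in replicate 2 and 31 in every replicate, with 2 H1, 7 H2A, 9 H2B, 5 H3 and 8 H4 genes in every replicate, and the median percentile of the best peak fell to 91.2 in replicate 1 (from 96.1) and 61.6 in replicate 2 (from 93.05). In 200 bp windows, 12.5% of the sites at histone starts held AACAAA or AACAAT and 11.2% GACAAA or GACAAT. Over every peak, the median distance in replicate 1 was 233.5 bp. Leaving out 1 replicate gave 63 to 64 histone genes with a peak in each remaining replicate, 4 to 5 for H1, and 18, 17, 11 and 13 for H2A, H2B, H3 and H4. The other distances, a p-value of 1e-10 or less, lists of 8096 peaks and a reciprocal overlap of 50% left 56 to 65 genes in every replicate, where 2.02 to 7.23% of all genes passed. The window from 300 bp before to 500 bp after a start was chosen after seeing the data. The lists hold no read counts, so depth cannot be set beside any score, and a peak in multi-copy DNA cannot be tied to 1 gene.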

Other observations

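Histone genes that the annotation lists as pseudogenes, and that are not among the 67, were looked at after the values of the others were seen. Hist1h2aj, within Hist1, had a peak in every replicate with scores of 552.40, 306.46 and 516.21, at 5.5 to 36 bp after its start. Hist2h3c2, within Hist2, had scores of 876.70, 750.49 and 1303.73 through the peaks also given for Hist2h2aa2. Hist3h2bb-ps had a peak in replicate 3 alone, with a score of 86.75.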
